A study of Mus musculus with 6 samples.

Results

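The nuclear-encoded genes of the mitochondrial respiratory chain were compared between mouse embryonic fibroblasts overexpressing p27 and the EV control cells of the same series. The genes were taken by symbol, as those of the count table that begin with Nduf followed by a, b, c, s or v, with Uqcr, with Cox4 to Cox8 or with Atp5, together with Sdha, Sdhb, Sdhc and Sdhd. This gave 92 of 24062 genes. They comprised 36 subunit genes of complex I, 4 of complex II, 8 of complex III, 20 of complex IV with its tissue isoforms and the supercomplex factor Cox7a2l, 16 of complex V with the coupling factor gene Atp5s, and 8 assembly factors. Of these, 88 passed edgeR's filter on low counts and were tested among 13990 genes.

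The p27OE group held 3 libraries of C57BL/6 embryonic fibroblasts given p27 by lentivirus and harvested at day 10. The EV control group held 3 libraries of C57BL/6 embryonic fibroblasts, also at day 10. The protein p27, encoded by Cdkn1b, inhibits cyclin-dependent kinases. The labels give no promoter of the transgene and do not say whether the libraries came from separate embryos or cultures. The spread behind every p-value is that of the deposited libraries. How much of it is technical is not known, and the libraries differ in Y-linked level within both groups, as given below. The sample titles and protocol call the p27OE cells senescent, while the design text of the series calls the overexpressing cells non-senescent, and the groups are used here by name alone.

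Complexes I to IV pass electrons from NADH and succinate to oxygen, and complexes I, III and IV pump protons across the inner mitochondrial membrane. Complex V, the ATP synthase, uses the proton gradient to make ATP. Most subunits are encoded in the nucleus, and a small set, including the oxygen-reducing core of complex IV, is encoded in mitochondrial DNA. The table holds 0 genes with a mitochondrial DNA symbol, so the values below cover the nuclear part of the chain. The transcription factors NRF1 and GABP, an ETS factor, are textbook activators of many of these promoters.

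Promoters were read from RefSeq (GRCm38.p6), from 250 bases before to 50 bases after the start of each gene, and 76 of the 92 genes had an entry. The core of the NRF1 motif, a palindrome of 10 bases searched on both strands, was found in 7 of these (9.21%), against 1.07% of 27025 genes. A relaxed form with any base at the fifth position, which includes the core, was found in 25.0%, against 5.19% of all. The ETS core CCGGAAG was found in 22.4%, against 9.93% of all. The YY1 core AAGATGG was found in 15.8%, against 7.28%, and the SP1 box GGGCGG in 44.7%, against 38.2%. A match describes the letters in this window and is not a site shown to be bound.

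The windows of 100 bases below hold the NRF1 core, in capitals, in the 5 genes that carry it before their start. They are shown because they come from complexes I, IV and V and an assembly factor and cover fitted differences on both sides of 0.
Cox6a1: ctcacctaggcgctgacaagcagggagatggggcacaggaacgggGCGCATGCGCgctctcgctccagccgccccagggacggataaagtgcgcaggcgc
Ndufa11: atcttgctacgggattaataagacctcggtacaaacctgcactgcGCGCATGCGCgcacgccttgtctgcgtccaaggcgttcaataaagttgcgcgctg
Atp5k: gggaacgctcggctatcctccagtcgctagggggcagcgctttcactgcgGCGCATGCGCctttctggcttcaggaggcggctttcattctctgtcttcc
Atp5g2: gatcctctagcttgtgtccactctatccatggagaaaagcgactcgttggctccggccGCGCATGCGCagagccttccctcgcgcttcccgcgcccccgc
Ndufaf4: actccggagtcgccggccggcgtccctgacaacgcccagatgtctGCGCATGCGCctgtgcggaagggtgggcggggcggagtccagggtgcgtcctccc
The windows lie at chr5:115349066-115349165 (minus strand) for Cox6a1, chr17:56717657-56717756 (plus strand) for Ndufa11, chr5:108434400-108434499 (minus strand) for Atp5k, chr15:102671048-102671147 (minus strand) for Atp5g2 and chr4:24897925-24898024 (plus strand) for Ndufaf4. The core began 162 bases before the RefSeq start of the gene in Cox6a1, 60 in Ndufa11, 50 in Atp5k, 42 in Atp5g2 and 113 in Ndufaf4. These distances depend on the annotation. In GENCODE M21 (GRCm38) Atp5g2 spans chr15:102662864-102672352 on the minus strand, so its window lies inside the gene. Atp5k starts there at chr5:108434448, within its window. The log2 fold changes of p27OE over EV control were 0.32 for Cox6a1, 0.33 for Ndufa11 and 0.086 for Atp5k. They were -0.23 for Atp5g2 and -0.31 for Ndufaf4. Uqcrc1 and Ndufaf5, whose core did not lie wholly before the RefSeq start, had -0.10 and -0.021. Genes with the same core lay on both sides of 0. None of them had an edgeR adjusted p under 0.05, and the part of the core in these differences was not tested.

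Libraries held 39183624 to 61219345 counts, and the respiratory chain genes took 0.786% to 0.878% of them. Levels are given in CPM, the counts of a gene scaled to a common library size by TMM, in the order of replicates 1, 2 and 3. Cdkn1b was at 166.6, 232.3 and 336.9 CPM in p27OE, against 43.9, 31.5 and 32.3 CPM in EV control. It rose (log2 fold change 2.77 ± 0.29, edgeR adjusted p = 0.028), a call lost without any 1 library other than EV control 1 (edgeR adjusted p = 0.0563 to 0.189). In those fits 0.00701% to 0.0140% of all tested genes passed. Log2 fold changes are those of p27OE over EV control, ± their standard error. Summed over Ddx3y, Eif2s3y, Kdm5d and Uty, Y-linked genes were at 1.95, 57.2 and 137.3 CPM in p27OE and 0.125, 126.1 and 124.4 CPM in EV control, so the libraries differ in this level within both groups. All 12 fibroblast markers averaged at least 10 CPM. The 14 macrophage markers in the table summed to 20.2, 29.6 and 36.5 CPM in p27OE and 98.9, 23.6 and 18.8 CPM in EV control, highest in EV control 1. Endothelial markers summed to 16.6, 11.8 and 6.44 CPM in p27OE and 26.4, 9.57 and 11.7 CPM in EV control, and epithelial markers to 1.95 to 8.14 CPM over the 6 libraries. The 10 proliferation genes summed to 881.6, 794.3 and 555.0 CPM in p27OE and 1154, 1432 and 1414 CPM in EV control. All 10 lay below 0, with a median log2 fold change of -0.93 and a smallest edgeR adjusted p of 0.0577. The part of these levels in the values below was not tested.

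The respiratory chain genes were evenly split around no difference. Of the 88 tested genes, 42 had a log2 fold change above 0 and 46 below 0. Their median was -0.0035, where the median over all tested genes was 0.014. The median absolute log2 fold change was 0.11, against 0.22 over all tested genes. Among genes averaging at least 10 CPM it was 0.10 for 81 respiratory chain genes, against 0.18 over all.

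By edgeR's quasi-likelihood test, 0 of the 88 genes passed a Benjamini-Hochberg adjusted p under 0.05, where 2.61% of all tested genes did. The smallest adjusted p was 0.0712. At an unadjusted p under 0.05 there were 10 of the 88 (11.4%), 6 higher and 4 lower, against 26.0% of all tested genes, 13.1% higher and 12.9% lower. With limma-voom 0 of the 88 passed, where 420 of all 13990 did. With DESeq2 6 passed, where 16.6% of all genes did. Cox6a1, Ndufa11, Ndufa13, Ndufa7 and Ndufb9 were higher (8.19% of all genes) and Atp5a1 lower (8.41%). With the replicate number as a block in edgeR 4 passed, where 17.2% of all genes did. Cox6a1, Ndufa11 and Ndufa13 were higher (9.23% of all) and Ndufa4l2 lower (8.00%). The libraries of the groups did not overlap for 24 of the 88 genes (27.3%), 15 with p27OE above and 9 with p27OE below, against 33.3% of all tested genes, 16.8% above and 16.5% below.

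A missed threshold does not show that levels were alike, and the intervals of the differences bound them. The 95% interval of the log2 fold change lay within 1.5-fold in either direction for 80 of the 88 genes (90.9%), against 48.2% of all tested genes. Among genes averaging at least 10 CPM it did so for 79 of 81 (97.5%), against 67.0%. The 8 genes with wider intervals were the tissue isoforms Cox4i2, Cox6a2, Cox6b2, Cox7a1 and Ndufa4l2 and the assembly factors Ndufaf3, Ndufaf4 and Ndufaf6.

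**Figure D1:**
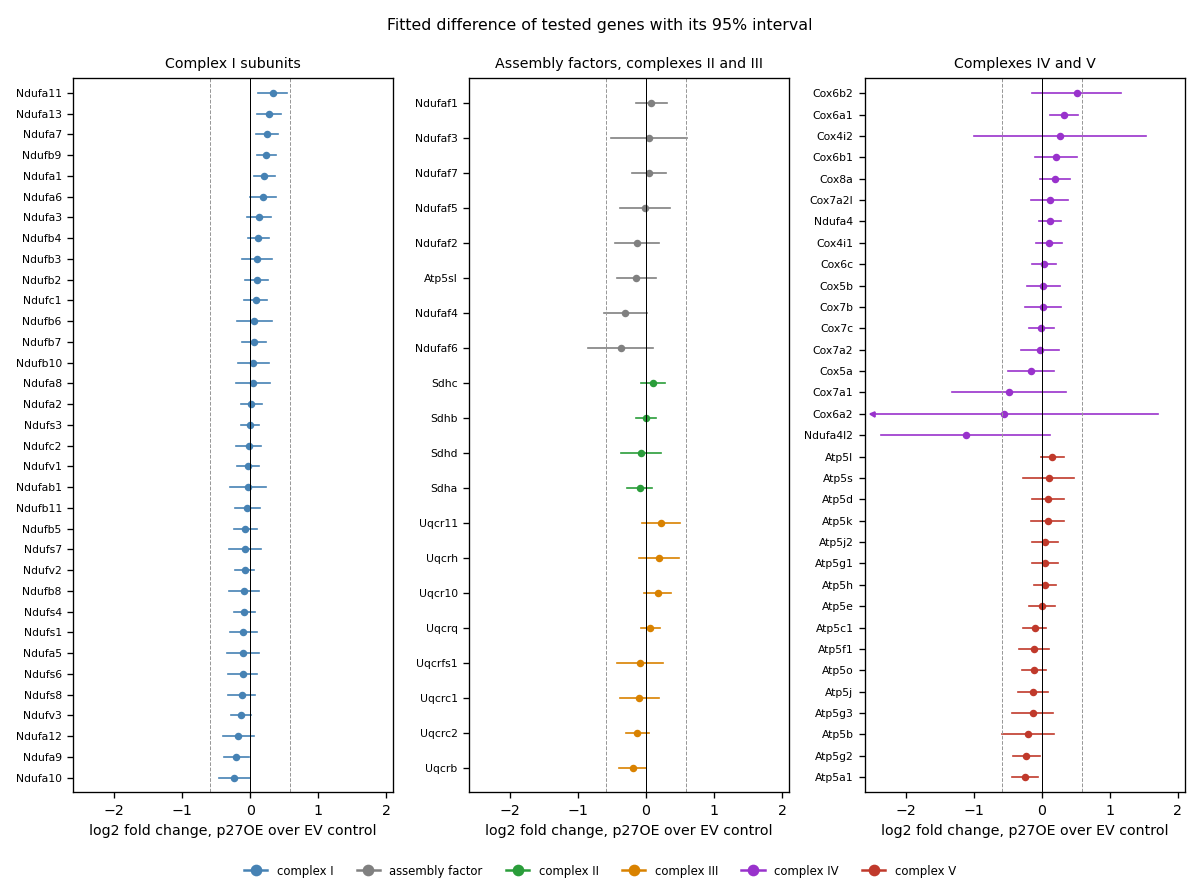
Log2 fold change of p27OE over EV control (horizontal axis) for tested respiratory chain genes, coloured by complex, with 95% intervals as lines; dashed lines mark 1.5-fold either way, and the arrow marks the Cox6a2 interval, which runs to -2.84. The intervals drawn for complexes I, II, III and V lie within the dashed lines, and Ndufa4l2 has the lowest value, -1.12.

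Summed over each complex, levels overlapped between the groups in complexes I, II, III and V, and in complex IV once its tissue isoforms were left out. Complex I summed to 1909, 1887 and 1914 CPM in p27OE and 1791, 1946 and 1917 CPM in EV control. Complex II summed to 506.9, 487.1 and 505.3 CPM in p27OE and 478.5, 532.1 and 520.8 CPM in EV control, and complex III to 715.4, 738.3 and 810.7 CPM in p27OE and 683.3, 810.7 and 786.4 CPM in EV control. In each of these the lowest control was EV control 1 and at least 1 p27OE library lay among the controls. Complex IV summed to 1528, 1541 and 1597 CPM in p27OE and 1369, 1527 and 1477 CPM in EV control, so that the lowest p27OE library lay 1 CPM above the highest control. Without the tissue isoforms the groups overlapped there too, at 1486, 1509 and 1582 CPM in p27OE and 1295, 1489 and 1446 CPM in EV control. Complex V summed to 3202, 3345 and 3563 CPM in p27OE and 3277, 3964 and 3923 CPM in EV control, with EV control 1 inside the p27OE range and EV control 2 and 3 above it. In bulk RNA, fewer cells of a type and less RNA per cell cannot be told apart.

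**Figure D2:**
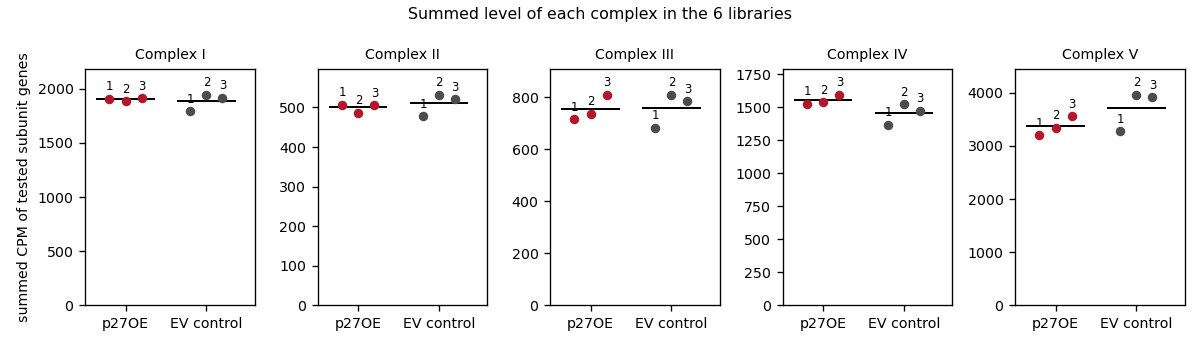
Summed CPM of the tested subunit genes of each complex (vertical axis, from 0) in the p27OE and EV control libraries, with the replicate number above each point and the group mean as a bar. EV control 1 is the lowest control in all 5 panels, at 3277 CPM for complex V, where EV control 2 and 3 are at 3964 and 3923 CPM.

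For most respiratory chain genes EV control 1 was the lowest control. It lay below both other controls for 67 of the 88 genes and above both for 15. Over all tested genes it lay below both for 6081 and above both for 6338. Among those averaging at least 10 CPM it lay below both for 4655 and above both for 3702. In the lists below, it lay below both for 69 of 77 mitochondrial ribosomal protein genes and 22 of 25 membrane, import and folding genes. The counts were 16 of 18 for pyruvate dehydrogenase and the tricarboxylic acid cycle and 23 of 38 for assembly factors. For electron carriers and feeders they were 11 of 16, and for regulators 8 of 15. The median log2 difference of EV control 1 from the mean of EV control 2 and 3 was -0.15 for the 88 genes and 0.0094 over all tested genes. Its median absolute value was 0.17 for the 88 genes and 0.25 over all tested genes. Among genes averaging at least 10 CPM it was 0.17 for 81 respiratory chain genes and 0.20 over all. Without EV control 1, 3 of the 88 genes passed by edgeR, against 12.9% of all genes, and all 3 were lower in p27OE, as were 6.75% of all genes. They were Atp5a1, Ndufa9 and Ndufa10. With both libraries numbered 1 left out, Atp5a1, Atp5g2, Ndufa10 and Ndufa12 passed, all lower in p27OE, where 16.7% of all genes passed and 8.90% were lower. The low Y-linked and high macrophage marker levels of EV control 1 go with this difference, and their part in it was not tested.

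**Figure D3:**
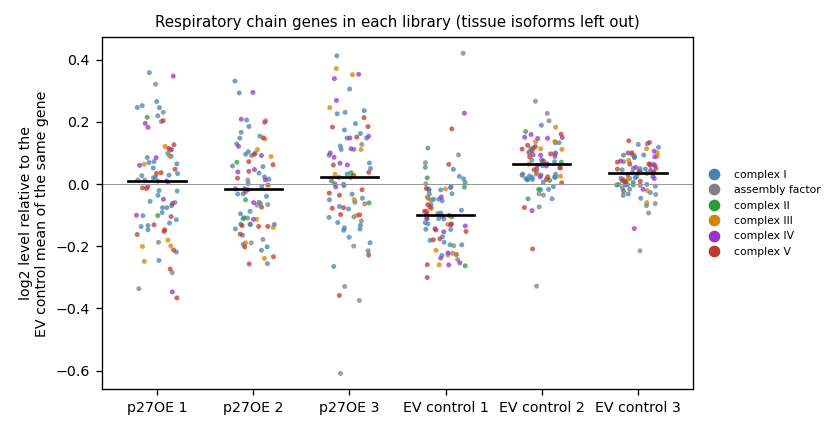
Log2 level of each tested respiratory chain gene relative to its mean over the EV control libraries (vertical axis) in each of the 6 libraries, coloured by complex, with the median of each library as a bar; tissue isoforms are left out, and the control values of a gene centre on 0 by construction. Most points of EV control 1 lie below 0, while those of the p27OE libraries lie on both sides.

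Complex I takes electrons from NADH to ubiquinone. Its core subunits carry the flavin and the iron-sulfur clusters or form the quinone pocket. All 7 nuclear core genes had log2 fold changes below 0, from -0.12 to -0.0059, and the smallest edgeR adjusted p among them was 0.403. The sign held for all 7 with RLE, upper-quartile and total-count scaling, which move all genes nearly alike. It did not hold in every pair of libraries: 4 of the 7 lay above 0 in p27OE 1 against EV control 1, and 1 in p27OE 3 against EV control 2 and 3. Their summed level was 538.9, 539.6 and 539.9 CPM in p27OE and 537.2, 573.6 and 564.1 CPM in EV control, with EV control 1 below p27OE and EV control 2 and 3 above it.

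The accessory subunits surround the core and serve its assembly and stability. Of the 28 tested, 16 lay above 0 and 12 below, with a median of 0.044. The groups did not overlap for 13 of them, 9 with p27OE above and 4 with p27OE below, where 33.3% of all tested genes did not, 16.8% above and 16.5% below. The smallest p of the whole chain belonged to Ndufb9, a membrane-arm subunit. It was at 93.3, 89.5 and 91.4 CPM in p27OE, against 76.6, 78.4 and 77.7 CPM in EV control. Every p27OE library lay above every control, without passing (log2 fold change 0.24 ± 0.057, edgeR adjusted p = 0.0712).

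Ndufa13, also known as GRIM-19, was at 83.8, 80.1 and 73.2 CPM in p27OE, against 67.6, 63.3 and 65.3 CPM in EV control (log2 fold change 0.27 ± 0.074, edgeR adjusted p = 0.0842). In the GENCODE M21 annotation (GRCm38) the gene lies on the minus strand at chr8:69894180-69902558, and 30.0% of its exon bases overlap Tssk6 on the plus strand, so that without a stated strand setting reads from the overlap cannot be assigned. Ndufa7, an accessory subunit of the matrix arm, was at 81.2, 77.8 and 84.6 CPM in p27OE, against 66.1, 71.6 and 67.6 CPM in EV control (log2 fold change 0.25 ± 0.067, edgeR adjusted p = 0.0843). Ndufa11, a membrane-arm subunit whose promoter is shown above, was at 56.9, 60.1 and 63.5 CPM in p27OE, against 43.1, 48.2 and 52.2 CPM in EV control (log2 fold change 0.33 ± 0.091, edgeR adjusted p = 0.0871). Ndufa1, a small X-linked subunit, was at 32.9, 31.7 and 33.1 CPM in p27OE, against 27.6, 28.7 and 28.4 CPM in EV control (log2 fold change 0.21 ± 0.065, edgeR adjusted p = 0.112). In all 4 genes the p27OE libraries lay above the controls, and none passed.

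The lowest fitted values of complex I were those of Ndufa10 and Ndufa9. Ndufa10, a membrane-arm subunit of kinase-like fold, was at 58.5, 57.0 and 58.6 CPM in p27OE, against 59.4, 71.8 and 73.9 CPM in EV control (log2 fold change -0.24 ± 0.094, edgeR adjusted p = 0.179). Ndufa9, which lies near the quinone pocket, was at 54.2, 56.2 and 57.1 CPM in p27OE, against 59.5, 69.6 and 64.2 CPM in EV control (log2 fold change -0.21 ± 0.077, edgeR adjusted p = 0.155). For both, every p27OE library lay below every control, but EV control 1 lay closer to the highest p27OE library than to either other control. Ndufs5 was listed at 0 counts in every library, while each of the other 35 complex I genes had at least 981 counts in each, and no direction is given for it.

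The assembly factors matched by symbol, Ndufaf1 to Ndufaf7 and Atp5sl, build complex I without remaining in it. Of the 8, 3 lay above 0 and 5 below, with a median of -0.077, and all 8 overlapped between the groups. Ndufaf4 had the smallest p and was at 13.4, 15.0 and 13.1 CPM in p27OE, against 14.5, 19.6 and 17.2 CPM in EV control (log2 fold change -0.31 ± 0.13, edgeR adjusted p = 0.206).

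Complex II oxidises succinate and belongs to both the chain and the tricarboxylic acid cycle. Its flavoprotein gene Sdha was at 201.3, 200.3 and 207.1 CPM in p27OE, against 200.7, 226.8 and 221.2 CPM in EV control (log2 fold change -0.092 ± 0.077, edgeR adjusted p = 0.502). The iron-sulfur subunit gene Sdhb was at 95.4, 91.5 and 97.2 CPM in p27OE, against 94.1, 95.5 and 94.6 CPM in EV control, a log2 fold change of -0.00097 with a 95% interval of -0.15 to 0.14. Both genes overlapped between the groups. Of the membrane anchors, Sdhc was at 116.2, 105.1 and 101.6 CPM in p27OE, against 101.5, 98.9 and 99.9 CPM in EV control (log2 fold change 0.11 ± 0.074, edgeR adjusted p = 0.421). Its lowest p27OE library and highest control lay next to each other. Sdhd was at 94.0, 90.2 and 99.3 CPM in p27OE, against 82.2, 110.9 and 105.2 CPM in EV control (log2 fold change -0.073 ± 0.12, edgeR adjusted p = 0.744), with controls both below and above p27OE.

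Complex III passes electrons from ubiquinol to cytochrome c. The Rieske iron-sulfur gene Uqcrfs1 (-0.091) and the core protein genes Uqcrc1 (-0.10) and Uqcrc2 (-0.13) had log2 fold changes below 0. Uqcrc1, the most abundant by CPM, was at 166.4, 176.8 and 194.1 CPM in p27OE, against 163.5, 210.2 and 203.5 CPM in EV control (log2 fold change -0.10 ± 0.12, edgeR adjusted p = 0.632). Of the 5 small subunits, 4 lay above 0, with a median of 0.17. Uqcr10 was at 58.3, 59.3 and 63.6 CPM in p27OE, against 50.8, 59.0 and 51.4 CPM in EV control (log2 fold change 0.17 ± 0.083, edgeR adjusted p = 0.256). Uqcr11 was at 57.3, 62.0 and 69.6 CPM in p27OE, against 46.4, 58.1 and 57.7 CPM in EV control (log2 fold change 0.22 ± 0.12, edgeR adjusted p = 0.294). For both, the lowest p27OE library lay below the highest control. Uqcrb, the small subunit below 0, was at 58.9, 59.3 and 65.3 CPM in p27OE, against 64.0, 73.2 and 73.2 CPM in EV control (log2 fold change -0.20 ± 0.083, edgeR adjusted p = 0.196), with p27OE 3 between EV control 1 and the other controls.

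Complex IV, cytochrome c oxidase, reduces oxygen to water, and several of its nuclear subunits exist as a common form and a tissue form. Of the 11 common subunit genes, 8 lay above 0, with a median of 0.031, and all 11 were lower in EV control 1 than in both other controls. Cox6a1, the common form of subunit VIa, lies at chr5:115345642-115348981 on the minus strand (GENCODE M21, GRCm38). It was at 232.4, 224.1 and 231.1 CPM in p27OE, against 164.2, 194.8 and 190.4 CPM in EV control. Every p27OE library lay above every control, without passing (log2 fold change 0.32 ± 0.089, edgeR adjusted p = 0.0853). The log2 fold change was 0.24 without EV control 1 (edgeR adjusted p = 0.0651).

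Cox8a, a small subunit that crosses the membrane, was at 154.4, 164.1 and 172.3 CPM in p27OE, against 129.4, 152.1 and 148.4 CPM in EV control (log2 fold change 0.19 ± 0.091, edgeR adjusted p = 0.242). Cox4i1, which binds ATP, was at 225.3, 230.3 and 240.4 CPM in p27OE, against 201.2, 225.0 and 222.8 CPM in EV control (log2 fold change 0.10 ± 0.079, edgeR adjusted p = 0.467). Both lay higher in every p27OE library than in every control, and the lowest p27OE library lay next to the highest control. Cox6b1 was at 138.5, 150.9 and 166.8 CPM in p27OE, against 109.5, 144.6 and 140.5 CPM in EV control (log2 fold change 0.21 ± 0.13, edgeR adjusted p = 0.365), and Cox7a2 at 72.3, 74.4 and 82.3 CPM in p27OE, against 65.7, 86.0 and 82.4 CPM in EV control (log2 fold change -0.032 ± 0.12, edgeR adjusted p = 0.889). These overlapped between the groups.

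**Figure D4:**
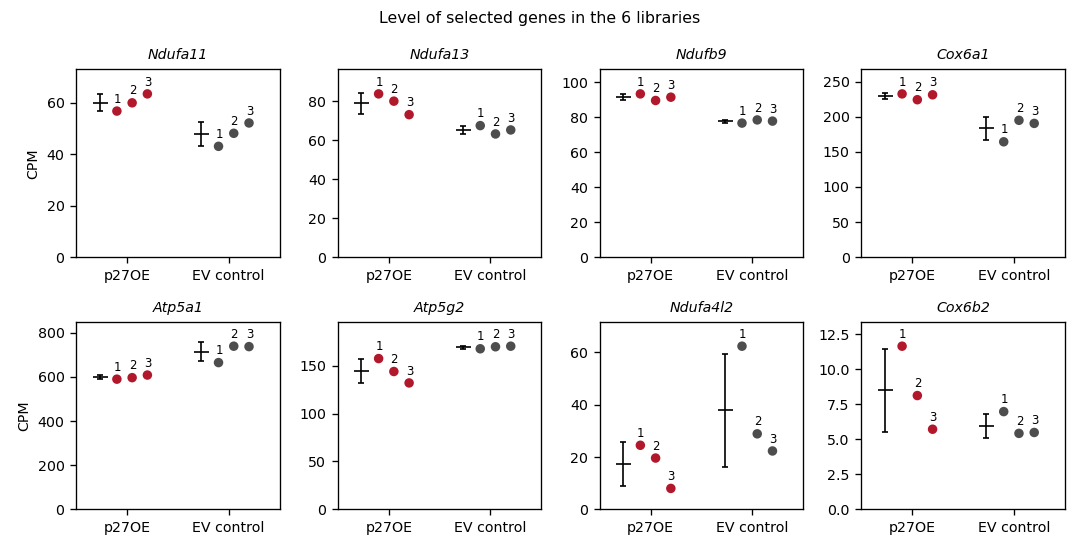
CPM (vertical axis, from 0) of 8 respiratory chain genes in the p27OE and EV control libraries, with the replicate number above each point and the mean ± SD (n = 3) to the left of each group. Ndufa11, Ndufa13, Ndufb9 and Cox6a1 are higher in every p27OE library than in every control, Atp5a1 and Atp5g2 are lower in every one, and Ndufa4l2 and Cox6b2 overlap.

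The tissue forms of complex IV were low, apart from Ndufa4l2. This paralogue of Ndufa4 is known as a target of the hypoxia-inducible factor HIF-1 and lies at chr10:127514967-127517154 on the plus strand. Ndufa4l2 was at 24.5, 19.6 and 8.03 CPM in p27OE, against 62.3, 28.9 and 22.3 CPM in EV control. The values spread widely within both groups, and p27OE 1 lay between EV control 3 and EV control 2. Its log2 fold change, -1.12 ± 0.52, was the lowest of the 88 genes and did not pass (edgeR adjusted p = 0.232, 95% interval -2.37 to 0.13). It was -0.57 without EV control 1 and -0.78 without p27OE 3, neither of which passed.

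As a share of the counts of Ndufa4 and Ndufa4l2 together, Ndufa4l2 made up 17.5%, 15.7% and 6.77% in p27OE and 38.6%, 21.8% and 17.8% in EV control. The mean was 13.3% ± 5.73 in p27OE and 26% ± 11.1 in EV control (SD, n = 3 each). The difference of -12.7 percentage points was -6.46 without EV control 1 and ran to -16.9 without EV control 3. The highest p27OE library and the lowest control lay next to each other, with exact binomial 95% intervals of 16.5% to 18.4% for p27OE 1 and 16.8% to 18.8% for EV control 3, which overlap and cover counting error only. The exact two-sided permutation p was 0.1, the smallest that 3 against 3 allows, or 0.5 adjusted over the 5 pairs tested. Ndufa4 itself was at 115.8, 105.4 and 110.4 CPM in p27OE, against 99.1, 103.7 and 103.3 CPM in EV control (log2 fold change 0.12 ± 0.068, edgeR adjusted p = 0.334).

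Cox4i2, the form of subunit IV known from lung and low oxygen, was at 5.13, 3.20 and 1.01 CPM in p27OE, against 2.83, 2.65 and 2.31 CPM in EV control (log2 fold change 0.27 ± 0.53, edgeR adjusted p = 0.79). The p27OE libraries lay on both sides of the controls. Its share of the pair with Cox4i1 was 1.34% ± 0.904 in p27OE and 1.19% ± 0.182 in EV control (SD, n = 3 each; exact permutation p = 0.8). Cox6b2, the testis form, was at 11.6, 8.12 and 5.72 CPM in p27OE, against 6.98, 5.42 and 5.49 CPM in EV control (log2 fold change 0.51 ± 0.27, edgeR adjusted p = 0.289). In both groups its highest library was the one numbered 1, and its share of the pair with Cox6b1 was 5.39% ± 2.23 in p27OE and 4.45% ± 1.33 in EV control (exact permutation p = 0.7).

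The muscle form Cox7a1 was at 0.411, 0.472 and 0.673 CPM in p27OE, against 0.525, 0.827 and 0.812 CPM in EV control (log2 fold change -0.48 ± 0.35, edgeR adjusted p = 0.43), and its share of the pair with Cox7a2 was 0.669% ± 0.127 in p27OE and 0.907% ± 0.0997 in EV control (exact permutation p = 0.2). The muscle form Cox6a2 was at 0.390, 0.410 and 0.0961 CPM in p27OE, against 1.05, 0.232 and 0.0878 CPM in EV control (log2 fold change -0.56 ± 0.95, edgeR adjusted p = 0.748), and its share of the pair with Cox6a1 was 0.131% ± 0.0774 in p27OE and 0.267% ± 0.321 in EV control (exact permutation p = 0.8). Both forms were within 1.05 CPM in every library. The 18 muscle markers summed to 84.3, 157.5 and 317.8 CPM in p27OE and 45.6, 128.8 and 121.7 CPM in EV control. Most of each sum came from Acta1 and Des, the only 2 of the 18 that averaged at least 10 CPM. Acta1 was at 39.3, 83.6 and 193.4 CPM in p27OE and 13.1, 73.6 and 63.2 CPM in EV control. Des was at 38.9, 68.2 and 118.9 CPM in p27OE and 26.2, 50.5 and 54.1 CPM in EV control. Ckm had 0 counts. The part of these markers in the values of the 2 muscle forms was not tested. Cox8b and Cox8c had 0 counts in every library, and Cox7b2 had 2 counts in p27OE 1 and 0 elsewhere. For Cox8b, the 3 counts that a count of 0 allows come to a share of at most 0.058% of its pair with Cox8a in the shallowest library, which covers counting error only.

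Complex V consists of a catalytic head, a stalk and a membrane ring that turns as protons pass. Its 16 genes had a median log2 fold change of -0.055, with 7 above 0 and 9 below. Atp5a1, which encodes the alpha subunit of the head, was at 590.0, 596.8 and 608.6 CPM in p27OE, against 665.0, 739.3 and 737.4 CPM in EV control. Every p27OE library lay below every control (log2 fold change -0.25 ± 0.080, edgeR adjusted p = 0.111). It passed without EV control 1 (edgeR adjusted p = 0.0403) and with DESeq2 (adjusted p = 0.0162). It did not pass without any 1 of the other libraries (edgeR adjusted p = 0.179 to 0.349), with limma-voom (adjusted p = 0.109) or with the replicate block (edgeR adjusted p = 0.0633). Without 1 of those other libraries, 0.00701% to 0.0140% of all genes passed. Atp5b, which encodes the catalytic beta subunit and had the highest CPM of the chain, was at 1029, 1153 and 1310 CPM in p27OE, against 1077, 1483 and 1461 CPM in EV control (log2 fold change -0.20 ± 0.16, edgeR adjusted p = 0.464). Its groups overlapped through EV control 1.

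The genes Atp5g1, Atp5g2 and Atp5g3 encode the same mature ring subunit. Atp5g2, whose promoter is shown above, was at 157.3, 143.8 and 131.9 CPM in p27OE, against 167.5, 169.6 and 170.2 CPM in EV control (log2 fold change -0.23 ± 0.084, edgeR adjusted p = 0.153). Every p27OE library lay below every control, and the controls lay close together. Summed over the 3 ring genes, the level was 468.4, 467.4 and 466.5 CPM in p27OE and 458.9, 537.7 and 530.3 CPM in EV control, with EV control 1 below p27OE and EV control 2 and 3 above it. The 3 small membrane subunit genes Atp5j2, Atp5k and Atp5l lay above 0. Atp5l was at 99.6, 101.1 and 103.7 CPM in p27OE, against 86.6, 97.6 and 89.8 CPM in EV control (log2 fold change 0.15 ± 0.071, edgeR adjusted p = 0.234), with every p27OE library above every control.

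Levels of different genes were compared per kilobase of the longest protein-coding transcript in GENCODE M21, which 91 of the 92 genes had. In complex V, Atp5b had 607.5 ± 73.5 in p27OE and 699.5 ± 119.2 in EV control CPM per kilobase (SD, n = 3 each). Atp5g3 followed with 283.2 ± 17.4 in p27OE and 311.5 ± 46.1 in EV control, and Atp5a1 with 223.8 ± 3.52 in p27OE and 267.0 ± 15.8 in EV control, these being within their spread of each other in EV control. Complex IV was led by Cox6a1, with 401.4 ± 7.82 in p27OE and 320.7 ± 29.0 in EV control CPM per kilobase. Cox4i1 (303.3 ± 10.1 in p27OE and 282.8 ± 17.2 in EV control) and Cox8a (297.5 ± 16.3 in p27OE and 260.5 ± 22.1 in EV control) came next and lay within their spread of each other. In complex III the first was Uqcrh (205.7 ± 20.4 in p27OE and 180.7 ± 23.7 in EV control), in complex I Ndufa7 (153.8 ± 6.43 in p27OE and 129.6 ± 5.32 in EV control) and in complex II Sdhb (82.9 ± 2.55 in p27OE and 83.0 ± 0.636 in EV control). The range of Ndufa7 overlapped that of Ndufa2 (128.5 ± 4.31 in p27OE and 126.9 ± 5.22 in EV control) in EV control, and the range of Sdhb that of Sdhd (76.8 ± 3.75 in p27OE and 80.8 ± 12.4 in EV control) in both groups. In EV control the ranges of Cox6a1 and Cox4i1 also overlapped. The longest transcript may not be the one these cells use, and the order holds for that length alone.

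Within the respiratory chain, the fitted difference went with transcript length. Over 82 genes, tissue isoforms left out, Spearman's rho between log2 fold change and length was -0.43, and Pearson's r with log10 length was -0.40. With the isoforms rho was -0.37 over 87 genes. The relation was looked at after the values were seen. Of 41 genes with transcripts under 1000 bases, 27 lay above 0, with a median of 0.046. Of 29 genes from 1000 to 2000 bases, 9 lay above 0, with a median of -0.073, and of 12 longer ones 4 did, with a median of -0.089. Among all tested genes averaging at least 10 CPM, rho was 0.10 over 8714 genes, and 170 of 356 genes under 1000 bases lay above 0.

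The rho was -0.51 for p27OE 1 against EV control 1 and -0.40 for p27OE 3 against EV control 2 and 3, comparisons that have no library in common. It was 0.15 for EV control 1 against the other controls. These are correlations across genes measured in the same libraries, which are not independent replicates.

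**Figure D5:**
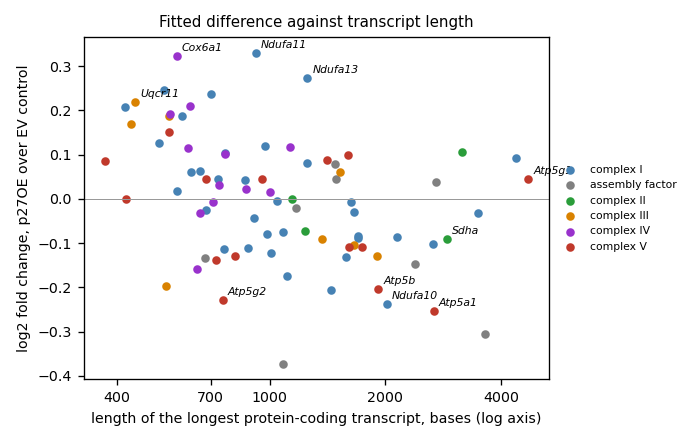
Log2 fold change of p27OE over EV control (vertical axis) against the length of the longest protein-coding transcript in bases (log axis) for 82 respiratory chain genes, coloured by complex, with tissue isoforms left out. Cox6a1, Ndufa11 and Uqcr11 lie high among the shorter transcripts and Atp5a1, Atp5b and Ndufa10 low among the longer ones, while Atp5g2 is short and low.

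Genes that build, feed and regulate the chain were read from 6 further lists. Of assembly factors outside the symbol rule, 21 of 38 tested genes lay above 0, with a median of 0.031. By edgeR 1 of the 38 passed, a share near the 2.61% of all tested genes. Cox14, which acts early in complex IV assembly, rose. It was at 43.0, 41.4 and 40.2 CPM in p27OE, against 28.6, 30.1 and 31.4 CPM in EV control (log2 fold change 0.47 ± 0.071, edgeR adjusted p = 0.0384). The call was lost without any 1 library other than EV control 1 (edgeR adjusted p = 0.0715 to 0.202), fits in which 0.00701% to 0.0140% of all genes passed. Surf1, another complex IV factor, was at 28.7, 29.0 and 29.0 CPM in p27OE, against 23.3, 21.8 and 20.4 CPM in EV control (log2 fold change 0.40 ± 0.079, edgeR adjusted p = 0.0522). Coa7 was at 6.93, 7.34 and 6.08 CPM in p27OE, against 9.58, 11.5 and 10.2 CPM in EV control (log2 fold change -0.62 ± 0.13, edgeR adjusted p = 0.0604). For all 3 genes, which were picked by smallest p, the groups did not overlap. They did not overlap for 44.7% of the 38 genes and 33.3% of all tested genes.

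Mitochondrial ribosomal proteins translate the subunits that mitochondrial DNA encodes. Of their genes, 16 of 77 tested genes lay above 0, with a median of -0.14. The pairs of libraries differed in this. In p27OE 1 against EV control 1, 39 of the 77 lay above 0, with a median log2 difference of 0.0028. In p27OE 3 against EV control 2 and 3, 14 did, with a median of -0.20. By edgeR 1 of the 77 passed, a smaller share than the 2.61% of all tested genes. Mrpl40 fell, and was at 23.6, 21.8 and 23.3 CPM in p27OE, against 29.4, 32.0 and 33.7 CPM in EV control (log2 fold change -0.47 ± 0.083, edgeR adjusted p = 0.0471). Its call was lost without any 1 library other than EV control 1 (edgeR adjusted p = 0.0917 to 0.223) and with total-count scaling (edgeR adjusted p = 0.0507). In those fits with 1 library left out, 0.00701% to 0.0140% of all genes passed, and with total-count scaling 2.24% did. Mrpl42 was at 32.4, 30.7 and 29.1 CPM in p27OE, against 36.4, 40.3 and 39.4 CPM in EV control (log2 fold change -0.33 ± 0.078, edgeR adjusted p = 0.0681), and Mrps27 at 17.9, 17.2 and 15.9 CPM in p27OE, against 20.5, 22.7 and 23.2 CPM in EV control (log2 fold change -0.38 ± 0.091, edgeR adjusted p = 0.0706).

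In the other 4 lists the smallest edgeR adjusted p was 0.0521. Of the electron carriers and their feeders, 6 of 16 tested genes lay above 0, with a median of -0.13, and 0 were higher and 4 lower at an unadjusted p under 0.05. Of all tested genes, 13.1% were higher and 12.9% lower at that level, the shares against which this and the next 3 lists are read. The groups did not overlap for 37.5% of this list, 16.7% of the next and 40% of each of the last 2. Over all tested genes the share was 33.3%. The genes named were picked by smallest p, which itself favours groups that do not overlap. In p27OE 1 against EV control 1, 9 of the 16 carriers and feeders lay above 0, and 5 did in p27OE 3 against EV control 2 and 3. Coq7, of ubiquinone synthesis, was at 10.3, 10.2 and 8.94 CPM in p27OE, against 13.0, 15.2 and 13.6 CPM in EV control (log2 fold change -0.51 ± 0.11, edgeR adjusted p = 0.0643). Pdss1, which starts the ubiquinone side chain, was at 5.95, 5.56 and 4.90 CPM in p27OE, against 7.20, 11.0 and 10.6 CPM in EV control (log2 fold change -0.81 ± 0.19, edgeR adjusted p = 0.0698), and the methyltransferase gene Coq3 at 14.3, 14.5 and 16.9 CPM in p27OE, against 18.6, 21.0 and 18.7 CPM in EV control (log2 fold change -0.35 ± 0.11, edgeR adjusted p = 0.102). All 3 lay lower in every p27OE library than in every control.

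For pyruvate dehydrogenase and the tricarboxylic acid cycle, 6 of 18 tested genes lay above 0, with a median of -0.085, and 0 were higher and 2 lower at an unadjusted p under 0.05. Above 0 were 11 of the 18 in p27OE 1 against EV control 1, and 7 in p27OE 3 against EV control 2 and 3. Idh2, the mitochondrial NADP-linked isocitrate dehydrogenase, was at 125.5, 105.1 and 68.9 CPM in p27OE, against 173.9, 158.3 and 162.5 CPM in EV control (log2 fold change -0.72 ± 0.21, edgeR adjusted p = 0.095). The p27OE libraries lay below the controls, p27OE 3 farthest. Idh3g, a subunit of the NAD-linked enzyme, was at 66.7, 63.4 and 60.5 CPM in p27OE, against 72.0, 72.7 and 76.3 CPM in EV control (log2 fold change -0.21 ± 0.066, edgeR adjusted p = 0.109), also without overlap. Suclg2, of succinyl-CoA ligase, was at 50.8, 54.0 and 53.2 CPM in p27OE, against 53.2, 60.5 and 58.8 CPM in EV control (log2 fold change -0.13 ± 0.074, edgeR adjusted p = 0.331).

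Of the transcriptional regulators, 4 of 15 tested genes lay above 0, with a median of -0.11, and 1 was higher and 3 lower at an unadjusted p under 0.05. Above 0 were 5 of the 15 in p27OE 1 against EV control 1, and 3 in p27OE 3 against EV control 2 and 3. Esrra, a nuclear receptor that activates respiratory genes, was at 33.9, 36.2 and 39.3 CPM in p27OE, against 23.1, 29.4 and 26.9 CPM in EV control (log2 fold change 0.46 ± 0.11, edgeR adjusted p = 0.0712). Nrf1, which encodes the factor of the core motif above, was at 32.1, 28.8 and 26.7 CPM in p27OE, against 33.9, 37.3 and 35.3 CPM in EV control (log2 fold change -0.28 ± 0.091, edgeR adjusted p = 0.117). Tfam, which packages and helps transcribe mitochondrial DNA, was at 26.6, 27.8 and 24.3 CPM in p27OE, against 33.4, 30.4 and 29.7 CPM in EV control (log2 fold change -0.25 ± 0.088, edgeR adjusted p = 0.139). The groups did not overlap for any of these, with p27OE above for Esrra and below for Nrf1 and Tfam. Ppargc1a, which encodes PGC-1alpha, was below 0.5 CPM in every library and was not tested.

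Of the membrane, import and folding genes, 5 of 25 tested genes lay above 0, with a median of -0.096, and 0 were higher and 9 lower at an unadjusted p under 0.05. Above 0 were 11 of the 25 in p27OE 1 against EV control 1, and 7 in p27OE 3 against EV control 2 and 3. Vdac3, an outer membrane channel, was at 130.0, 126.3 and 119.3 CPM in p27OE, against 167.7, 160.7 and 156.5 CPM in EV control (log2 fold change -0.37 ± 0.071, edgeR adjusted p = 0.0521). Timm50, of the inner membrane import channel, was at 39.5, 38.1 and 36.3 CPM in p27OE, against 44.7, 56.7 and 58.4 CPM in EV control (log2 fold change -0.49 ± 0.11, edgeR adjusted p = 0.0675), and Hspa9, the matrix chaperone that pulls proteins in, at 604.3, 561.4 and 514.7 CPM in p27OE, against 915.3, 723.0 and 714.5 CPM in EV control (log2 fold change -0.49 ± 0.13, edgeR adjusted p = 0.0793). All 3 lay lower in every p27OE library than in every control. No test set any of these lists against the respiratory chain genes.

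With the summed Y-linked CPM added to the edgeR model as a term, 16 of the 88 genes passed (18.2%), against 34.0% of all tested genes, 18.0% higher and 16.0% lower. The 11 that rose were Atp5l, Cox6a1, Cox6b1, Cox8a, Ndufa1, Ndufa11, Ndufa13, Ndufa7, Ndufb9, Uqcr11 and Uqcrh. The 5 that fell were Atp5a1, Atp5g2, Ndufa4l2, Ndufa9 and Uqcrb. The median over the 88 genes was 0.0013 in that model. Ndufa4l2 had a log2 fold change of -1.32 (edgeR adjusted p = 0.00121), Ndufa11 of 0.36 (edgeR adjusted p = 0.0042) and Atp5a1 of -0.24 (edgeR adjusted p = 0.00796). The term was chosen with earlier results of these data known, and it leaves 3 residual degrees of freedom.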

How the data were processed

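RNA was sequenced from 3 p27OE and 3 EV control samples, grouped by their titles. The authors deposited raw counts of reads for each gene symbol, without normalization. The mm10 genome, featureCounts 1.4.6 of Subread, Bowtie2 2.2.6 and TopHat2 2.0.14 are named, per the submitters' processing notes. The annotation, the strand setting and the filters are not given in the sources used here, so near-identical copies such as processed pseudogenes, and overlapping genes, may share or lose reads.

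Counts were scaled by TMM, filtered with filterByExpr and tested with edgeR 4.0.16 (quasi-likelihood, robust; R 4.3.3), group alone in the model, with Benjamini-Hochberg adjustment over all 13990 genes tested. Standard errors were derived from the quasi-likelihood F statistic, and 95% intervals use its degrees of freedom. limma 3.58.1, DESeq2 1.42.0, other scalings and filters, the Y-linked term, the replicate block, and left-out libraries were alternatives. The edgeR step was first tested on simulated data. The depth of 39183624 to 61219345 counts per library keeps counting error small for all but the rarest genes. No 2 libraries of the same group agreed within sampling noise. Their squared difference relative to that noise, averaged over genes, was 6.51 for EV control 2 against EV control 3. For EV control 1 it was 182.5 against EV control 2 and 139.5 against EV control 3. Among the p27OE libraries it was 55 to 188.4. EV control 2 and 3 were thus far closer to each other than to EV control 1.

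Genes were named by rule: the 3 smallest p in each complex (5 in complex I), the most abundant, the isoform pairs, members with an absolute log2 fold change of at least 0.5 and at least 10 CPM, the assembly factor with the smallest p, and the 3 smallest p of each further list. Others, such as Ndufa9, Ndufa10, Sdhb, Ndufs5 and Ppargc1a, were named after their values were seen. A gene that the rule names is not reported here. The members and lists were chosen with earlier results of these data known. Sequences and promoters come from RefSeq (GRCm38.p6).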

Additional observations from a re-analysis of the deposited data

How the results depend on the processing

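The tested respiratory chain genes numbered 88, except 89 with no filter and 86 with a stricter one. Of these, 0 passed with RLE, upper-quartile or total-count scaling, with either of those filters, with limma-voom and without Cdkn1b. In those settings 1.74% to 4.04% of all genes passed. The number of respiratory chain genes that passed was 6 with DESeq2, 4 with the replicate number as a block and 16 with the Y-linked term. It was 4 with both libraries numbered 1 left out, and 0 to 3 with 1 library left out. The 4 under the replicate block were Cox6a1, Ndufa11 and Ndufa13, higher, and Ndufa4l2, lower (adjusted p = 0.0152 for Ndufa4l2). Deviations of same-numbered libraries correlated at 0.669, 0.043 and 0.495, and the best match of EV control 2 was p27OE 3 (0.555). The labels state no pairing, so libraries of equal number share only a number. Over all genes, 365 passed, against 2321 with DESeq2, 2410 with the replicate block, 4761 with the Y-linked term, 2334 without both libraries numbered 1 and 1 to 1827 with 1 library left out, the highest without EV control 1. The further lists held 38, 77, 16, 18, 15 and 25 tested genes in the fit with group alone. Of these 2 were called, where 2.61% of all genes passed. Total counts gave 1 (2.24% of all genes), the stricter filter 4 (4.04%), DESeq2 22 (16.6%) and the replicate block 21 (17.2%). Adding the Y-linked level gave 54, where 34.0% of all genes passed. Dropping both libraries numbered 1 gave 40 (16.7% of all genes). Dropping 1 library gave 0 to 34, in fits where 0.00701% to 12.9% of all genes passed. The median log2 fold change of the respiratory chain genes was -0.064 without both libraries numbered 1, -0.043 to 0.015 with 1 library left out and 0.00043 with total counts. With 1 library left out, the difference in share, p27OE minus EV control, ran from -0.296 to 0.608 percentage points for Cox4i2, -0.247 to 0.0481 for Cox6a2, -0.244 to 1.98 for Cox6b2, -0.309 to -0.186 for Cox7a1 and -16.9 to -6.46 for Ndufa4l2. Of 813 pairs of a named gene and an alternative, 698 kept sign and side of the threshold, 88 were newly called, 16 lost a call and 11 changed sign without a call. The cause of these changes was not tested.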

Other observations

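Comparisons without a common library were set side by side, p27OE 1 against EV control 1, which had the lowest Y-linked levels, and p27OE 3 against EV control 2 and 3, which had the highest. Of the 88 respiratory chain genes, 31 lay above 0 in both and 21 below 0 in both, so that 59.1% had the same sign, where 72.2% of all 13990 tested genes did. The median log2 difference of the 88 genes was 0.070 in the comparison of the libraries numbered 1, with 62 above 0, and -0.033 in the other, with 36 above 0. Each of these rests on 1 p27OE library and has no test.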
